A study of Mus musculus with 49 samples.

Results

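dediHeps are the cells that grow out when hepatocytes of the adult mouse are kept as a monolayer and passaged again and again. This comparison asked what long passage adds to the first 2 weeks of that culture, gene by gene. It set 5 libraries of dediHeps (dediHep 1 to 5) against 3 libraries of hepatocytes harvested 2 weeks after plating (Hep_14d 1 to 3), which were 8 of the 49 libraries in the table of counts. Of 46078 genes listed, 11167 had enough counts to be tested, and all of these were taken as members. Hepatocytes in both groups were wild type, came from 10-week-old C57BL/6J mice, male in the methods and without a sex in the labels, and were grown on type I collagen in the same standard medium with EGF at 20 ng/mL. dediHeps are therefore not a treatment but a later stage of the same kind of culture. Passage, time on the dish and the cultures the libraries came from cannot be told apart here. The labels give no passage number for single dediHep libraries and do not say whether the 5 came from separate isolations, so p-values measure the spread between these libraries only. RNA was extracted with 1 of 2 kits, and which library had which was not stated.

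Hepatocytes carry the liver's synthesis of plasma proteins, its cholesterol and bile acid metabolism and its drug-handling enzymes. On a flat dish they lose much of this within days, spread, form actin bundles and take up genes of both epithelial and mesenchymal cells. Part of that change depends on mechanical tension and growth factors in the medium, and cells that go on to divide can be carried through many passages. Intestinal and hepatic epithelia share an embryonic origin in the endoderm, and the homeobox factor Cdx2 specifies the intestinal side of it.

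Library totals ran from 1631842 to 2848505 counts in dediHeps and from 861047 to 2554130 in Hep_14d, and values are CPM, the count over a total of 1e+06 scaled with TMM factors over the 8 libraries, unless stated otherwise. Only levels of the same gene are compared, since no length enters these 3′-end counts. dediHeps varied more among themselves: the median SD of log2 CPM was 0.557 in dediHeps and 0.335 in Hep_14d, and Spearman correlations between libraries were 0.739 to 0.917 within dediHeps and 0.940 to 0.958 within Hep_14d. Hep_14d 3 had the lowest total of the 8 but the most genes detected, 20048 against 15171 to 16796 in the other libraries. Its mitochondrially encoded genes summed to 26401 CPM, against 9814 and 14517 CPM in Hep_14d 1 and 2 and 10613 to 16689 CPM in dediHeps. dediHep 1 stood farthest from its group, with a median absolute log2 deviation of 0.559 against 0.269 to 0.392 in the other dediHeps. It also went against the sex given in the methods. Xist, the RNA that coats the inactive X chromosome of female cells, was at 454, 0, 0, 0 and 0.496 CPM in dediHeps 1 to 5 and at 0 in the 3 Hep_14d libraries. The Y-linked helicase gene Ddx3y was at 0, 0, 196, 14 and 17.8 CPM in dediHeps 1 to 5 and at 180.3, 234 and 216 CPM in Hep_14d. Ddx3y was thus absent in dediHeps 1 and 2, low in 4 and 5, and within the range of the 2-week culture in dediHep 3, where Uty, another Y-linked gene, was at 40.9 CPM against 80.3, 82.1 and 76.3 CPM in Hep_14d. The main counts are therefore also given without dediHep 1.

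Markers of non-parenchymal liver cells differed between the groups as well. Summed over the 20 macrophage and Kupffer cell genes on the list, Hep_14d 1 to 3 held 383, 493 and 30.3 CPM and dediHeps 1.98 to 12.7 CPM. Clec4f and Marco, which define Kupffer cells, were at 17.3, 20.7 and 0 and 46, 44.5 and 0 CPM in Hep_14d 1 to 3, and Marco was at 0 in all 5 dediHeps. The 18 stellate cell and fibroblast genes summed to 222, 416 and 113 CPM in Hep_14d and to 20.9 to 133 CPM in dediHeps. Of the endothelial genes the sum was 43.7 to 72.7 CPM in Hep_14d and 24.3 to 83.3 in dediHeps, with Pecam1 at no more than 2.63 CPM in any of the 8. In bulk RNA fewer cells of a type cannot be told apart from less RNA per cell.

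The first question was how many genes differed after long passage, and which way. Genes were called at a false discovery rate (FDR) under 0.1 and a fold over 4, the thresholds of the study's methods, in edgeR's quasi-likelihood test. Of the 11167 genes tested, 662 were called (5.93%), with 429 higher in dediHeps (3.84%) and 233 lower (2.09%). The last 2 shares are the background for the counts of each gene list below. At an FDR under 0.1 and any fold, 1084 genes were higher (9.71%) and 900 lower (8.06%), and the median log2 fold change over all genes tested was 0.08. The groups did not overlap for 551 of the 662 called genes, against 22.9% of all genes tested. Without dediHep 1 the test called 685 genes, 423 higher and 262 lower, and 560 of the 662 kept their call. The count rested more on the 3 Hep_14d libraries, since without Hep_14d 2 it fell to 285 genes, 130 higher and 155 lower, and without Hep_14d 1 to 435. With both Hep_14d 1 and Hep_14d 2 left out, the libraries with the most macrophage RNA, an alternative added after the data were seen, 40 genes were called, 3 higher and 37 lower, against the single library left.

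**Figure D1:**
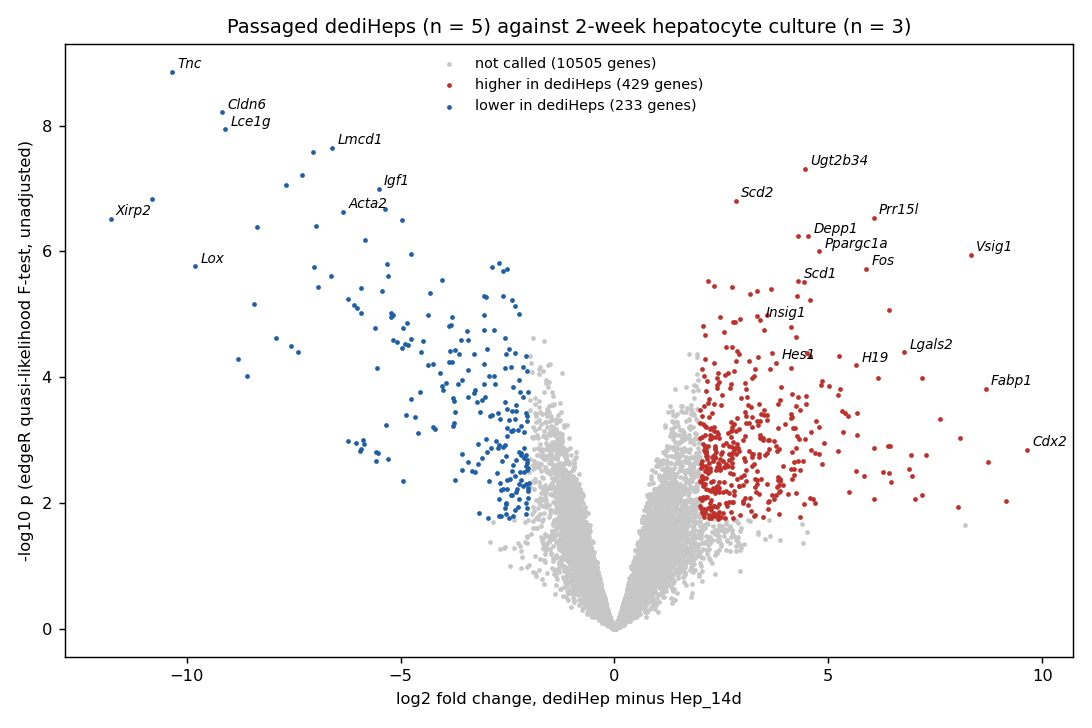
Each point is 1 of the 11167 genes tested, with the log2 fold change of dediHep (n = 5) over Hep_14d (n = 3) on the x axis and -log10 of the unadjusted p of edgeR's quasi-likelihood test on the y axis. The 429 genes called higher lie to the right in red, the 233 called lower to the left in blue, and the smallest p-values belong to genes that were lower, led by Tnc at a log2 fold change of -10.35.

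Among the genes that rose with the smallest p-values, products of mature liver stood beside metabolic and immediate-early genes. Ugt2b34, which conjugates drugs and steroids with glucuronic acid, was at 569.7, 686, 1069, 612 and 738 CPM in dediHeps 1 to 5 and at 41.5, 25.1 and 32.9 CPM in Hep_14d 1 to 3. Every dediHep library lay far above every Hep_14d library, and the log2 fold change was 4.46 ± 0.35 (SE, FDR 9.1e-05). Ugt2b genes are near-identical paralogs, so reads may have been split between them. Ppargc1a encodes PGC-1α, the coactivator of mitochondrial and gluconeogenic genes, and was at 37.5, 32.9, 27.8, 35.5 and 46.6 CPM in dediHeps and 1.13, 0.627 and 2.63 in Hep_14d. The groups were again wide apart, with a log2 fold change of 4.78 ± 0.50 (FDR 0.000506). Depp1, a target of FoxO factors, rose by a log2 fold change of 4.52 ± 0.45 (FDR 0.000323), Slc16a12, a carrier of creatine, by 4.29 ± 0.43 (FDR 0.000323) and Prr15l by 6.06 ± 0.57 (FDR 0.000223). Rpl22l1, a paralog of ribosomal protein L22, rose by 2.19 ± 0.26 (FDR 0.000885), while of the 38 cytosolic ribosomal protein genes tested 0 were called in either direction and 4 passed the FDR.

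The genes that fell with the smallest p-values were nearly silent in dediHeps. Tnc, the extracellular matrix glycoprotein tenascin C of healing wounds, was at 201, 267 and 132 CPM in Hep_14d 1 to 3 and at 0, 0, 0, 0 and 0.496 in dediHeps 1 to 5. A single count stood behind the dediHep value, so the level in Hep_14d was higher by a ratio of 2331 (95% counting interval 417 to 92156), with an FDR of 1.56e-05. Cldn6, a claudin of embryonic epithelia, was at 108, 65.2 and 93.4 CPM in Hep_14d and at 0, 0, 0, 0 and 0.496 in dediHeps, likewise from 1 count, a ratio of 1016 (95% counting interval 181 to 40215) (FDR 3.43e-05). Kif1a, a kinesin motor best known from axons, fell from 178, 298 and 211 CPM in Hep_14d to 2.46, 2.12, 1.96, 0 and 1.98 CPM in dediHeps, with a log2 fold change of -7.06 ± 0.53 (FDR 5.91e-05). Lmcd1, a LIM-domain cofactor, fell by 6.60 on the log2 scale (FDR 5.91e-05), and Erc2, an organizer of the presynaptic active zone, by 5.36 (FDR 0.000197). Igf1, the growth factor that hepatocytes secrete into blood, was at 46.4, 43.3 and 47.4 CPM in Hep_14d and at 0.413 to 1.84 CPM in dediHeps (log2 fold change -5.51 ± 0.47, FDR 0.000126). Gvin1 and Gm4070, neighbouring and near-identical genes for a very large interferon-inducible GTPase whose reads may be shared, were at -7.68 and -7.31 (FDR 0.000124 and 9.6e-05). Lce1g and Lce1h, paralogs from the late cornified envelope cluster of skin, were at 99.7 to 171 and 95.9 to 124 CPM in Hep_14d. In dediHeps Lce1g had a count in 1 of 5 libraries and Lce1h in 0, which for Lce1h put Hep_14d at least 405-fold higher against a floor of 3 counts over the group (FDR 0.000159).

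Many genes that differed after passage had moved the other way in the first week of culture. Fresh hepatocytes (FH) and hepatocytes at 1 week (Hep_7d), 3 libraries each, share no library with the comparison of dediHeps and Hep_14d, and in them 2583 of 10519 genes were called (24.6%), 1214 higher (11.5%) and 1369 lower (13%) at 1 week. The column names of the counts number the fresh, 1-week and 2-week libraries alike. These libraries may therefore come from the same isolations, which was not stated. Of the 429 genes higher in dediHeps, 281 were tested in both comparisons. Among those 281, 137 (48.8%) were lower and 13 (4.63%) higher at 1 week than fresh, whereas 8.35% of all 9837 genes tested in both were lower and 12.3% higher. Among the 173 of the 233 lower genes that were tested in both, 86 (49.7%) had been higher at 1 week and 39 (22.5%) lower. A gene with few counts at 1 week entered the first-week test only where fresh hepatocytes expressed it, and the reverse. Genes called higher in dediHeps were selected for a low level at 2 weeks, and those called lower for a high one. The shares of all 9837 genes are therefore not a like background. Whether the reversal exceeds what this selection gives was not tested. Seen from the other side, the 137 were 16.7% of the 821 genes lower at 1 week, and the 86 were 7.13% of the 1206 genes higher then. Without Hep_14d 2 the 137 became 52 and the 39 became 21, without Hep_14d 1 the 137 became 78, and without Hep_14d 3 the 39 became 25. The 13 were the least stable, ranging from 6 without Hep_14d 2 or 3 to 41 without the first fresh library. Most genes moved by the first week were thus not called between 2 weeks and dediHeps. Fos, Ugt2b34, Scd1 and Ppargc1a fell in the first week, with log2 fold changes of -4.01, -3.64, -4.37 and -4.62. Tnc rose then by 6.37, while Cldn6, Kif1a and Xirp2 had no count in fresh hepatocytes and averaged 86.6 ± 39.3, 70.2 ± 44.2 and 146 ± 77.1 CPM (SD, n = 3) at 1 week on a scale set over all 49 libraries. Scd2 was among the 13 genes higher both times (log2 fold change 4.71 in the first week), and Igf1 and Mbl2, the mannose-binding lectin of plasma, among the 39 lower both times (-2.80 and -3.02).

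**Figure D2:**
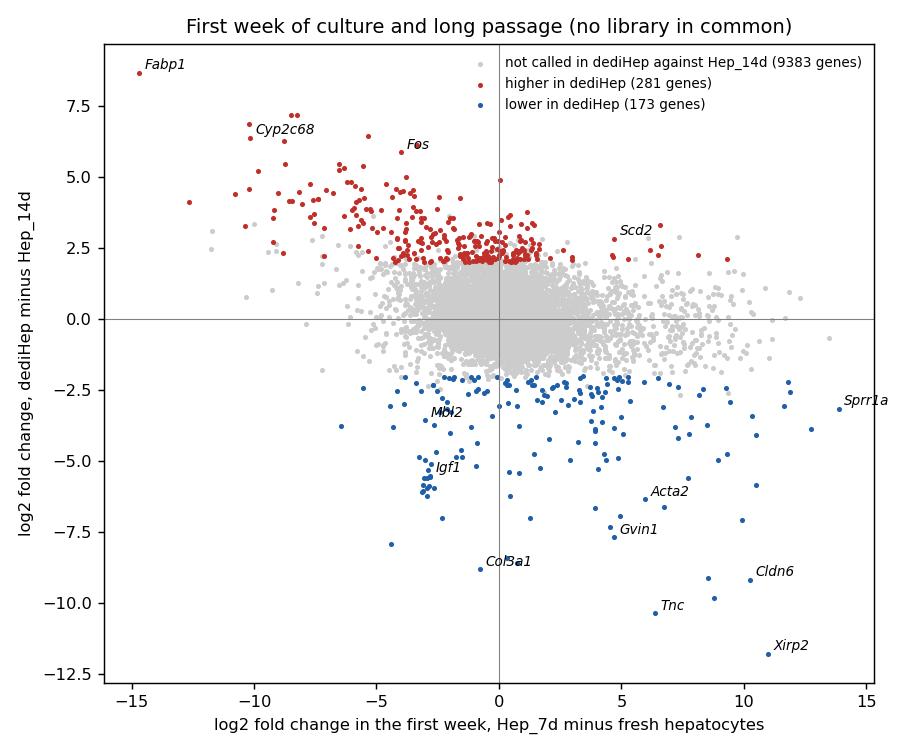
Each point is 1 of 9837 genes, with the log2 fold change of 1 week over fresh hepatocytes (3 libraries each) on the x axis and of dediHep over Hep_14d on the y axis. Red points, the 281 genes called higher in dediHeps, spread from the centre to the upper left, and the 173 called lower, in blue, spread to the lower right with a compact cluster near Igf1 on the left.

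The cluster of lower genes near Igf1 was made up mostly of predicted genes at repeat-rich loci, and its members were picked out after their values were seen. They were 13 genes, 10 of them at chromosome 9, bases 3000282 to 3038316 (GRCm38), 2 on chromosome 2 and 1 on chromosome 14. Together they summed to 149.7 CPM in Hep_14d 1, 2719 in Hep_14d 2 and 27715 in Hep_14d 3, and to 22.7, 313, 485, 197 and 716 CPM in dediHeps 1 to 5. Only Hep_14d 3 and, less so, Hep_14d 2 stood above the dediHeps, Hep_14d 1 lay within their range, and the groups overlapped for all 13. The genes are near-identical or overlap one another, so their reads cannot be assigned to single loci and the 13 are not independent. Each was called lower, with log2 fold changes of -6.23 to -3.72, but 1 of the 13 stayed called without Hep_14d 3. They made up 13 of the 233 lower calls and 13 of the 39 genes lower both times, which leaves 220 and 26.

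The liver enzyme list held 42 genes, of which 14 had enough counts to be tested and 11 had no count in any dediHep. Enzymes near 0 at 2 weeks entered the test only where dediHeps expressed them, so the counts below do not describe the whole list. Of the 14 tested, 9 were called higher in dediHeps and 0 lower, against 3.84% and 2.09% of all genes. Their median log2 fold change was 2.93, against 0.08 over all genes. These are genes of drug, steroid, alcohol and urea metabolism, and 13 of the 14 had been called lower at 1 week than fresh. Sult1a1, a sulfotransferase, was at 145, 54.7, 102, 122 and 209 CPM in dediHeps and 12.8, 9.4 and 9.21 CPM in Hep_14d. The groups did not overlap, and the log2 fold change was 3.56 ± 0.48 (FDR 0.00175). Ugt2b36 rose by 4.13 ± 0.58 (FDR 0.00223), Cyp3a13, a cytochrome P450, by 2.50 ± 0.48 (FDR 0.0124), and Adh1, alcohol dehydrogenase, by 5.46 (FDR 0.0148). Leaving out dediHep 1 raised the calls to 13 of the 14, and leaving out Hep_14d 2 lowered them to 5. Cyp2c68, another P450 with close paralogs, was among the genes with the largest folds. It was at 1.84, 65.3, 75.5, 16.1 and 221 CPM in dediHeps and 0.377, 1.25 and 1.32 CPM in Hep_14d, and its call was lost without Hep_14d 1 or 2 (FDR 0.121 and 0.136).

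Cyp2c68, Fabp1 and Afm stayed well below their level in fresh cells. On the scale over 49 libraries, Ugt2b34 stood at 1209.9 ± 349 CPM in fresh hepatocytes, 30.6 ± 8.05 at 2 weeks and 691 ± 182 in dediHeps (SD, n = 3, 3 and 5). Cyp2c68 stood at 1534 ± 264, 0.898 ± 0.468 and 72 ± 83.1 CPM. Fabp1, the fatty acid carrier of liver and gut, was at 1878 ± 124 CPM in fresh cells and at 0 in all libraries of 1 and 2 weeks. In dediHeps 1 to 5 it was back at 3.69, 44.6, 36.3, 21.9 and 20.3 CPM, at least 44.7-fold above Hep_14d against a floor of 3 counts over the group (FDR 0.00849). Afm, the albumin relative afamin, followed the same course, with 604 ± 167 CPM fresh, 0.377, 0.627 and 0 CPM in Hep_14d 1 to 3 and 4.3, 97.1, 65.4, 38.4 and 128 CPM in dediHeps 1 to 5, a ratio of 169 (95% counting interval 46.5 to 1396) over 2 counts in Hep_14d (FDR 0.00674). Both genes were lowest in dediHep 1.

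A further 5 liver genes stayed near 0 in both groups and fell under the filter on low counts. Cyp7a1 and Cyp8b1, enzymes of bile acid synthesis, Cyp1a2 and Cyp3a11, drug-metabolizing P450s, and Mup5, a major urinary protein with near-identical copies, were each present in fresh hepatocytes, where Cyp8b1 stood at 2393 ± 587 CPM on the scale over 49 libraries. In dediHeps Cyp8b1 was at 0, 0.531, 0.327, 1.65 and 0 CPM and Cyp7a1 at 0 in all 5 libraries. Cyp3a11 was at 4.3, 2.12, 4.25, 1.24 and 41.6 CPM in dediHeps and 0.754, 0.627 and 3.95 CPM in Hep_14d, with 1 dediHep library above the others. Exact two-sided permutation tests over the libraries gave p-values of 0.768 for Cyp8b1, 0.982 for Cyp1a2, 0.464 for Cyp3a11 and 0.107 for Mup5. The smallest p that such a test can give is 0.0179. Cyp7a1 had counts in Hep_14d 3 alone, so its p of 0.375 was the lowest these values could give and decides nothing. A count floor of 3 stood at 1.05 to 3.48 CPM in the 8 libraries, so differences below that could not be seen.

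**Figure D3:**
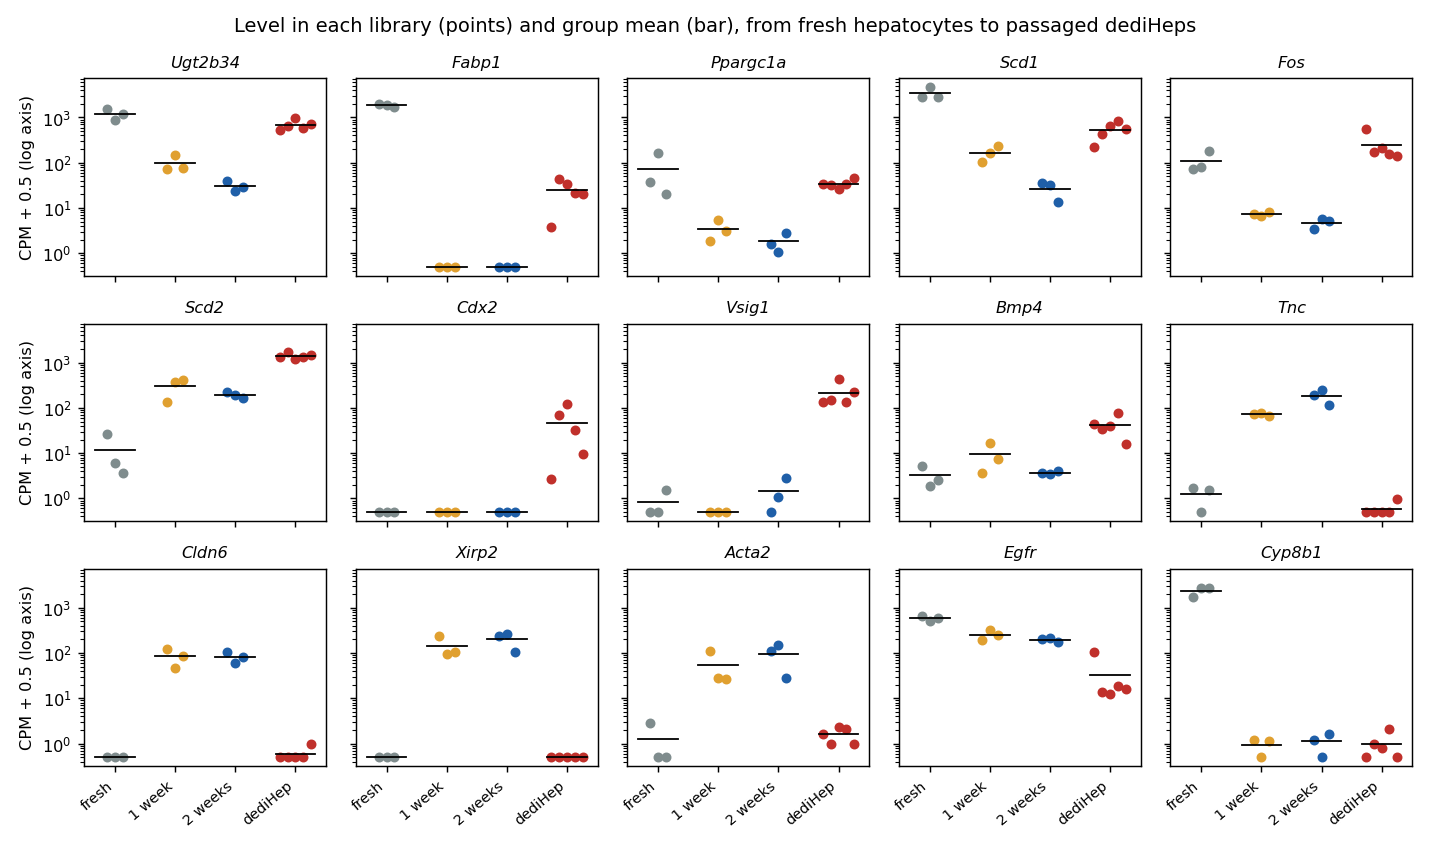
CPM + 0.5 of 15 genes on a log axis in fresh hepatocytes, at 1 and 2 weeks (3 libraries each) and in dediHeps (5 libraries), with a point per library and a bar for the group mean, on a scale set over all 49 libraries. Ugt2b34, Fabp1, Ppargc1a, Scd1 and Fos are low at 1 and 2 weeks and higher before and after, Tnc, Cldn6, Xirp2 and Acta2 show the opposite course, Cdx2 and Vsig1 are highest in dediHeps, and Cyp8b1 stays near 0 from 1 week on.

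The secreted products that define hepatocytes were less uniform than the enzymes. Of 11 hepatocyte identity genes tested, 0 were called, 1 passed the FDR upward and 1 downward, with a median log2 fold change of 0.66. Alb, serum albumin, was at 98.3, 652, 68, 799 and 992 CPM in dediHeps 1 to 5 and 108, 92.8 and 151 CPM in Hep_14d. Its level was high in dediHeps 2, 4 and 5, and within or below the range of the 2-week culture in 1 and 3, and the log2 fold change was 2.16 ± 0.80 (FDR 0.107). Without dediHep 1 it passed, at 2.43 (FDR 0.0326), and without dediHep 3 at 2.44 (FDR 0.0462). Ttr, which carries thyroid hormone, was at 1.26 (FDR 0.0691) and Fga, a fibrinogen chain, at 1.25 (FDR 0.113). Ass1 of the urea cycle was lower in every dediHep, at 13.5, 13.8, 14.7, 17.3 and 16.9 CPM against 30.5, 29.5 and 28.9 CPM (log2 fold change -0.96 ± 0.29, FDR 0.063). Of 25 complement and coagulation genes, 3 were called higher and 1 lower (median 1.00), against 3.84% and 2.09% of all genes tested. C9, C1ra and F10 were higher and Mbl2 lower, the 3 higher became 6 without dediHep 1, and each of the 4 lost its call when some single Hep_14d library was left out (FDR of 0.187, 0.183, 0.158 and 0.175 without Hep_14d 2).

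Of 17 transcription factors of the hepatocyte tested, 1 was called, a share like the 5.93% of all genes, and the median log2 fold change was 0.52. Hnf4a, the central nuclear receptor of hepatocyte identity, was at 143, 233, 392, 234 and 281 CPM in dediHeps and 274, 155 and 304 CPM in Hep_14d. The 2 groups overlapped throughout, with a log2 fold change of 0.07 ± 0.35 (FDR 0.909). Cebpb, a leucine zipper factor of the acute phase, was the gene called, at 804, 261, 109, 448 and 179 CPM in dediHeps and 96.5, 68.3 and 64.5 CPM in Hep_14d (log2 fold change 2.23 ± 0.60, FDR 0.0394). Its fold went under 4 without dediHep 1, to 1.70 (FDR 0.0247), and its FDR above 0.1 without any 1 Hep_14d library (0.116 to 0.194). Gata6, an endodermal zinc finger factor, was higher in all 5 dediHeps without reaching 4-fold (1.43 ± 0.44, FDR 0.0645).

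**Figure D4:**
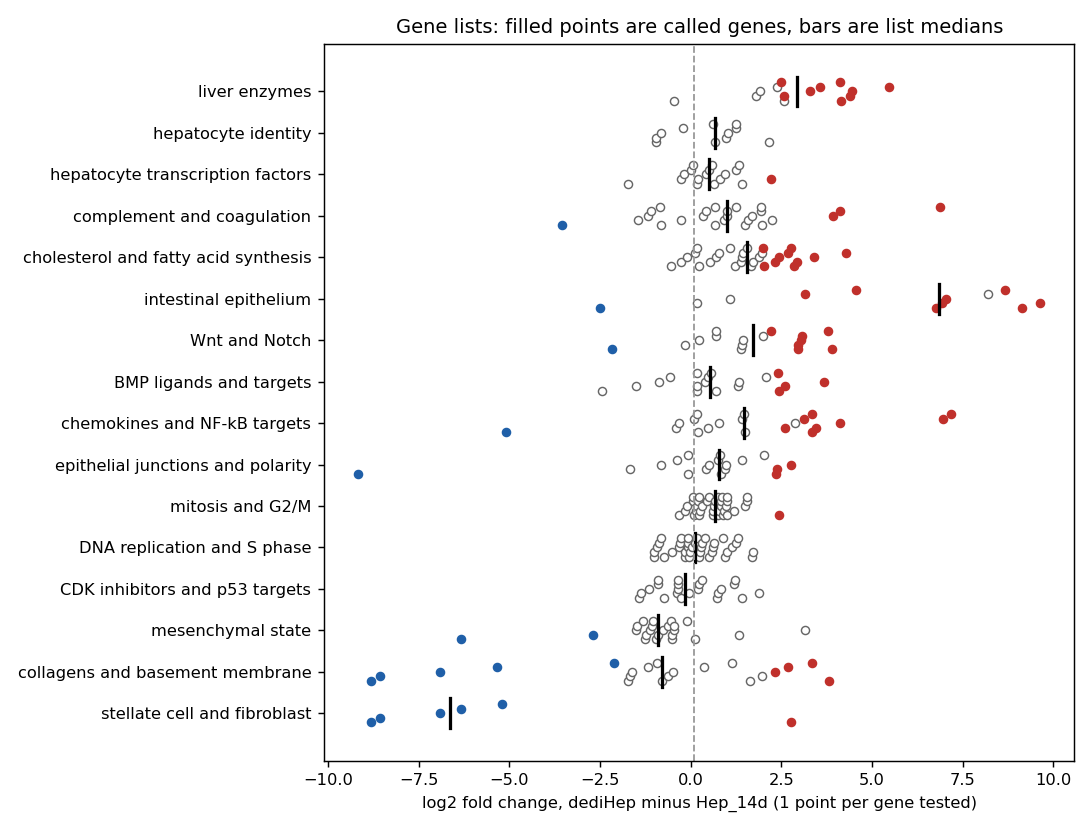
Each point is a tested gene of the named list, placed by its log2 fold change of dediHep over Hep_14d, with called genes filled (red higher, blue lower), list medians as black bars and the median of all genes tested as a dashed line at 0.08. Liver enzymes, sterol and intestinal genes lie to the right, cell cycle lists close to the dashed line, and stellate cell genes to the left.

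Genes of cholesterol synthesis were higher after passage. All 29 genes on the cholesterol and fatty acid list were tested, 18 passed the FDR upward and 0 downward, and 10 were called higher. The median log2 fold change was 1.56, and 3.84% of all genes were called higher. When cellular cholesterol is low, the membrane-bound factors encoded by Srebf1 and Srebf2 are released and switch on the enzymes of this pathway together with the LDL receptor. Scd2, a stearoyl-CoA desaturase that makes monounsaturated fatty acids, was at 1488, 1839.6, 1296, 1385 and 1542 CPM in dediHeps and 237, 205 and 189 CPM in Hep_14d, and the groups were far apart with little spread (log2 fold change 2.84 ± 0.25, FDR 0.000159). Its relative Scd1 was at 243, 454, 704, 875 and 573 CPM in dediHeps and 37, 33.2 and 14.5 CPM in Hep_14d (4.29 ± 0.51, FDR 0.000885). Insig1, the sterol sensor that holds the factors back and is itself their target, rose by 3.40 ± 0.46 (FDR 0.00194), Sqle, squalene epoxidase, by 2.77 ± 0.38 (FDR 0.00198), and Hmgcs1, which opens the mevalonate pathway, by 2.33 ± 0.38 (FDR 0.00494). Split by step after the values were seen, 10 of 17 enzymes of sterol synthesis passed the FDR upward and 5 were called, whereas of 7 fatty acid genes 3 passed, which were Elovl6, Scd1 and Scd2. Fasn, fatty acid synthase, was at -0.09 (FDR 0.869) and Acaca, acetyl-CoA carboxylase, at -0.26 (FDR 0.671). The calls of Scd1, Scd2, Insig1, Sqle and Hmgcs1 held without any 1 library, and without dediHep 1 the list had 11 genes called higher.

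The promoters of the list were read from RefSeq (GRCm38.p6), from 250 bases before to 50 after the first start listed for each gene. A promoter was found for 20 of the 29 genes, 6 of them called. CCAAT, the letters bound by the factor NF-Y, stood on either strand in 16 of the 20 (80%) and in all 6 of the called genes, against 37.9% of 27025 promoters. The sterol element TCACNCCAC stood in 1 of the 20, Hmgcs1, and in 1.22% of all promoters. Other motifs were searched on both strands. Of looser or stricter spellings that overlap the sterol element, TCACCCCAC was found in 1 of the 20 promoters and in 0.522% of all, and TCACNCNAC was found in 2 and in 2.78% of all. The AP-1 site, spelled TGACTCA, stood in 2 of the 20 and in 5.17% of all promoters. None of the 20 held the TEAD site GGAATG (14.6% of all promoters), the E2F sites TTTGGCGC (0.537% of all) or TTTCCCGC (1.11% of all), the CREB site TGACGTCA (1.88% of all), the Cdx site TTTATGG (2.76% of all) or the CArG box of serum response factor. A match is a description of letters and not of binding, and the motifs were chosen with the values known. The stretches below, on the strand of the gene, show the match nearest before the start in each of the 6 called genes, with the motif in capitals, ATTGG being CCAAT on the other strand.
Hmgcs1, sterol element, chr13:119690199-119690237: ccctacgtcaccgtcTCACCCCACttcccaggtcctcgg
Hmgcs1, chr13:119690291-119690325: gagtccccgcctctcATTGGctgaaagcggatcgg
Idi1, chr13:8885577-8885605: atggtccaaggtgccATTGGctggcgacc
Cyp51, chr5:4104707-4104741: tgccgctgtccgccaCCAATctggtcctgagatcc
Pmvk, chr3:89454390-89454424: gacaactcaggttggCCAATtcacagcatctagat
Srebf1, chr11:60222728-60222762: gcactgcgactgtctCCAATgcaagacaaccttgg
Insig1, chr5:28071181-28071215: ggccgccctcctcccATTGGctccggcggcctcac

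The sterol element of Hmgcs1 began at base -137 and its nearest CCAAT at -45, counted from the start, and those of Cyp51 and Insig1 at -29 and -216. In dediHeps 1 to 5 the counts stood at 338, 309, 502, 285 and 189.8 CPM for Hmgcs1, 30.7, 17.5, 22.6, 15.3 and 5.45 for Idi1 and 224, 635, 709, 573 and 327 for Cyp51. In Hep_14d 1 to 3 these 3 genes were at 51.3, 90.3 and 51.3, 2.26, 3.13 and 1.32 and 111, 97.2 and 61.8 CPM, and all 5 dediHeps lay above all 3 Hep_14d libraries for each. Srebf1 was highest in dediHep 1, at 106 CPM, while Insig1 was lowest there, at 41.2 CPM.

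Several genes of the intestinal epithelium, silent or nearly so at 2 weeks, were present in dediHeps. Of the 32 genes on the intestinal epithelium list 12 were tested, and 9 had no count in any dediHep. Genes near 0 at 2 weeks entered the test only where dediHeps expressed them, so the counts do not describe the whole list. Of the 12 tested, 8 were called higher and 1 lower, against 3.84% and 2.09% of all genes. The 8 became 9 without dediHep 1, but 3 without Hep_14d 1, 2 without Hep_14d 2 and 5 without Hep_14d 3, and the 1 lower became 0, 0 and 2. On the scale over 49 libraries the list summed to 2063 to 2246 CPM in fresh hepatocytes and 237 to 339 CPM in Hep_14d. In dediHeps 1 to 5 it summed to 543, 955, 2736, 1058 and 951 CPM. The list thus holds genes expressed in fresh hepatocytes. Of its 4 members tested in the first week, 2 were called lower and 2 higher. Cdx2, the homeobox factor that specifies intestine, had no count in fresh hepatocytes or in the libraries of 1 and 2 weeks. In dediHeps 1 to 5 it was at 2.46, 73.8, 129, 33.4 and 9.42 CPM, at least 96.7-fold above Hep_14d against a floor of 3 counts over the group (FDR 0.0271). It was detected in every dediHep library but with a wide spread, lowest in dediHep 1, and its call was lost without Hep_14d 1 or 2 (FDR 0.101 and 0.124). Its relative Cdx1 had a count in 1 dediHep library only, and Lgr5, the receptor of intestinal stem cells, was at no more than 1.63 CPM in dediHeps. Lgals2, galectin-2, was at 30.1, 212, 707, 465 and 223 CPM in dediHeps and 2.64, 1.88 and 5.26 CPM in Hep_14d (log2 fold change 6.78 ± 1.05, FDR 0.00397). Vil1, the villin of microvilli, was at 35.6, 185, 321, 192 and 188 CPM against 24.5, 8.78 and 30.3 CPM (3.15 ± 0.66, FDR 0.0169), and was not called without Hep_14d 2 (FDR 0.108). Muc13, a mucin of the gut surface, was at 0, 32.9, 136, 6.19 and 3.47 CPM in dediHeps and at 0, 0 and 1.32 CPM in Hep_14d, a ratio of 227 (95% counting interval 40.5 to 8980.3) over 1 count, and absent in dediHep 1 (FDR 0.0687). Ascl2, a factor of intestinal stem cells, went the other way, from 9.05, 12.5 and 10.5 CPM in Hep_14d to 0, 1.59, 1.31, 5.37 and 0.496 CPM in dediHeps (log2 fold change -2.50, FDR 0.0565).

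Vsig1, a junction protein of gastric epithelium, was at 149, 153, 479, 141 and 230.0 CPM in dediHeps and 0, 0.627 and 2.63 CPM in Hep_14d. It was high in all 5 dediHeps, with a ratio of 425 (95% counting interval 145 to 2062) over 3 counts in Hep_14d (FDR 0.000526). Ffar4, a receptor for long-chain fatty acids, had no count in Hep_14d and was at 19.7, 6.9, 91.9, 8.26 and 4.46 CPM in dediHeps, at least 53.8-fold higher (FDR 0.033, and 0.119 and 0.139 without Hep_14d 1 or 2). Ms4a4b, a membrane protein known from T cells, was at 339.8, 192, 167, 37.6 and 215 CPM against 0.754, 3.76 and 2.63 CPM (6.42 ± 0.84, FDR 0.00161), while the 16 lymphocyte and neutrophil markers summed to 0 to 20.6 CPM in dediHeps and 1.25 to 11.8 CPM in Hep_14d. Of 17 genes of fetal and regenerating gut, 2 were called higher and 1 lower (median -0.18), and the 2 became 0 without any 1 Hep_14d library or dediHep 3 and 1 without dediHep 2. The 1 lower gene was Sprr1a, a cornified envelope protein induced by injury, at 116, 288, 27.8, 47.9 and 62 CPM in dediHeps and 628, 934 and 1301 CPM in Hep_14d (log2 fold change -3.14 ± 0.63, FDR 0.0142).

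The BMP ligand Bmp4 and the target Id3 were higher in dediHeps. The ligand Bmp7 was higher except in dediHep 3, which lay within the range of Hep_14d. Secreted BMPs act through Smad factors, whose best known targets are the Id genes and the inhibitory Smad6. Of 18 tested genes 4 were called higher and 0 lower (median 0.52), against 3.84% and 2.09% of all genes. The 4 became 3 without dediHep 1, 2 without Hep_14d 1 or 3 and 1 without Hep_14d 2. Without dediHep 4, 1 was lower. Among ligands, Bmp4 was at 48.5, 35.6, 42.5, 80.5 and 16.4 CPM in dediHeps and 3.39, 3.13 and 3.95 CPM in Hep_14d, without overlap (log2 fold change 3.68 ± 0.57, FDR 0.00397), and the call held without any 1 library. Bmp7 was at 24.6, 27.6, 6.86, 26.4 and 126 CPM in dediHeps and 6.41, 8.78 and 5.26 CPM in Hep_14d. Much of its fold came from dediHep 5, without which it was 1.61 (FDR 0.0879) against 2.60 with it (FDR 0.0736), and its call was lost without any 1 Hep_14d library (FDR 0.196 to 0.228). Among targets, Id3 rose by 2.42 ± 0.53 (FDR 0.0206), or 1.99 without dediHep 1 (FDR 0.00831), and had an FDR of 0.131 without Hep_14d 2. Id1 was at 785, 672, 611, 719.8 and 566 CPM against 249.7, 223 and 345 CPM, higher in every dediHep at under 4-fold (1.30 ± 0.25, FDR 0.0125). Id2 was at 0.18 ± 0.32 (FDR 0.738), and Bmp1, which cleaves procollagen rather than signalling, at -1.51 ± 0.44 (FDR 0.0552).

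Of 28 Wnt and Notch genes 16 were tested, and members near 0 at 2 weeks entered the test only where dediHeps expressed them. Of the 16, 7 were called higher and 1 lower (median 1.72), against 3.84% and 2.09% of all genes. Leaving out dediHep 1 gave the same counts, leaving out any 1 Hep_14d library gave 3 higher, and the 1 lower was lost without Hep_14d 2 or 3 or dediHep 2 or 3. Notch receptors are activated by ligands such as Jag2 on neighbouring cells and switch on Hes1 and the feedback inhibitor Nrarp. Hes1 was at 808, 266, 546, 143 and 214 CPM in dediHeps and 24.9, 25.7 and 36.8 CPM in Hep_14d. No dediHep library came near the 2-week culture, with a log2 fold change of 3.78 ± 0.61 (FDR 0.00491). Jag2 rose by 2.96 ± 0.55 (FDR 0.0104) and Nrarp by 3.04 ± 0.77 (FDR 0.0328), the latter lost without any 1 Hep_14d library (FDR 0.106 to 0.175) and low in dediHep 5. Wnt10a, a ligand of canonical Wnt signalling, was at 206, 69, 179, 85.1 and 197 CPM against 20.4, 2.51 and 3.95 CPM (3.89 ± 0.70, FDR 0.00818). Sox9 and Krt19, markers of bile duct cells and liver progenitors, went in opposite directions. Sox9 was lower in all 5 dediHeps, at -1.01 ± 0.35 (FDR 0.0898). Krt19 was higher in all 5 but short of both thresholds, at 104, 88.6, 542, 113 and 132 CPM against 67.9, 38.2 and 75 CPM (1.71 ± 0.63, FDR 0.106). It was highest in dediHep 3. Prom1, another progenitor marker, was at 1.40 ± 0.72 (FDR 0.22). Of the 10 cholangiocyte and progenitor genes tested 0 were called.

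The immediate-early gene Fos and several chemokine genes were higher after passage. Fos, an AP-1 subunit induced within minutes by growth factors or handling, was at 601, 181, 222, 166 and 148 CPM in dediHeps and 3.02, 5.64 and 5.26 CPM in Hep_14d. The groups did not overlap, dediHep 1 was the highest, and the log2 fold change was 5.88 ± 0.66 (FDR 0.000689), or 5.34 without dediHep 1 (FDR 1.98e-05). Fos was also present in fresh hepatocytes, at 110.3 ± 59.7 CPM on the scale over 49 libraries. Of 31 chemokine and NF-kB target genes 20 were tested, and those near 0 in 1 group entered only through the other. Of the 20, 8 were called higher and 1 lower (median 1.48), against 3.84% and 2.09% of all genes. The 8 became 7 without dediHep 1, 4 without Hep_14d 1 or 3 and 3 without Hep_14d 2. Ccl2, which attracts monocytes, was at 2051, 1715, 775, 1481 and 1013 CPM in dediHeps and 195, 113 and 107 CPM in Hep_14d (3.34 ± 0.41, FDR 0.00107), and Cxcl1, which attracts neutrophils, rose by 3.34 ± 0.45 (FDR 0.00175). Nfkbia, the inhibitor that NF-kB induces, was higher in all 5 dediHeps at 1.41 ± 0.25 (FDR 0.00845). Ccl20 was at 868, 52, 10.5, 25.6 and 28.3 CPM and Saa3, a serum amyloid with close paralogs, at 7.37, 17, 1.96, 426 and 15.4 CPM in dediHeps, so that dediHep 1 carried the former and dediHep 4 the latter. In Hep_14d 1 to 3 they were at 0.754, 1.25 and 3.95 and 0.754, 0.627 and 0 CPM. Without those libraries the log2 fold changes fell from 6.95 (FDR 0.0431) to 4.19 (FDR 0.004) and from 7.18 (FDR 0.0626) to 4.00 (FDR 0.0266), and both calls were lost without any 1 Hep_14d library (FDR 0.119 to 0.238). The 1 lower gene was Cxcl12, a chemokine of stromal cells, at 4.3, 3.71, 0, 0.826 and 8.43 CPM in dediHeps and 114, 157 and 67.1 CPM in Hep_14d (-5.09 ± 0.76, FDR 0.00318). Of 15 interferon-stimulated genes 0 were called, 1 without dediHep 1, and 2 passed the FDR upward below 4-fold, among them H2-D1, a class I histocompatibility gene, at 0.98 (FDR 0.0565).

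Several contractile and matrix genes were lower in dediHeps than at 2 weeks. Xirp2, an actin-binding protein of striated muscle, was at 252, 283 and 121 CPM in Hep_14d and had no count in any dediHep. It was at least 888-fold higher in Hep_14d against a floor of 3 counts over the group (FDR 0.000223), and it had no count in fresh hepatocytes either. Lox, which crosslinks collagen, had no count in dediHeps and was at 78.1, 53.3 and 34.2 CPM in Hep_14d, at least 233-fold higher (FDR 0.000686). Acta2, smooth muscle actin, fell from 119, 161 and 31.6 CPM in Hep_14d to 1.23, 0.531, 1.96, 1.65 and 0.496 CPM in dediHeps (log2 fold change -6.34 ± 0.58, FDR 0.000202), and Myl9, the smooth muscle myosin light chain, from 60.7, 74.6 and 13.2 CPM to a single count in 5 libraries, a ratio of 638 (95% counting interval 114 to 25275) (FDR 0.000257). Serpine2, an inhibitor of thrombin and plasmin, fell by 2.81 ± 0.48 on the log2 scale (FDR 0.00632), Timp1, an inhibitor of matrix metalloproteases, fell by 2.47 ± 0.38 (FDR 0.00377), and Nt5e, the surface nucleotidase CD73, fell by 4.75 ± 0.51 (FDR 0.000526). Gng11, a G protein subunit, was at 26.4, 17.6 and 19.7 CPM in Hep_14d with no count in dediHeps, at least 82.8-fold higher (FDR 0.00139). The calls of Xirp2, Lox, Acta2, Myl9, Serpine2, Timp1, Nt5e and Gng11 held without any 1 library.

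Interstitial collagens were lower in dediHeps. Of 21 tested genes for collagens and basement membrane 5 were called lower and 4 higher (median -0.80), against 2.09% and 3.84% of all genes. At any fold 8 and 7 passed the FDR. The calls were 6 lower and 3 higher without dediHep 1, 3 lower and 0 higher without Hep_14d 2, and 1 higher without Hep_14d 3. Col1a1, the main chain of type I collagen, was at 32.1, 76.5 and 14.5 CPM in Hep_14d and 0.615, 0, 0, 0 and 0.991 CPM in dediHeps, from 3 counts, a ratio of 159.8 (95% counting interval 54 to 781) (FDR 0.00101). Col3a1 and Col1a2 had no count in dediHeps and were at least 106-fold and 82.8-fold higher in Hep_14d (FDR 0.00442 and 0.00632). These collagens, Acta2 and Pdgfra are also markers of stellate cells and fibroblasts. Of the 18 such genes on the list 6 were tested, and 7 had no count in any dediHep. Genes near 0 in dediHeps entered the test only where Hep_14d expressed them. Of the 6 tested, 5 were called lower and 1, Pcolce, higher, against 2.09% and 3.84% of all genes. The call of Pcolce was lost without any 1 Hep_14d library or dediHep 5. Pdgfra, a receptor of such cells, was at 7.92, 10.7 and 7.89 CPM in Hep_14d and 0, 0, 0.327, 0.413 and 0 CPM in dediHeps, a ratio of 48.4 (95% counting interval 12.6 to 412) over 2 counts (FDR 0.00178), and Col1a1 was highest in Hep_14d 2, the library with the largest stellate sum. The stellate sum of Hep_14d 3, 113 CPM, also lay above dediHeps 1 to 4 and below dediHep 5 at 133 CPM. The part of such cells in the fall was not tested. Lamb3, which encodes a chain of an epithelial laminin, rose by 3.80 ± 1.11 (FDR 0.0544) and Itgb4, a subunit of its receptor, by 3.33 ± 0.96 (FDR 0.051). Lamb1 was at -0.63 ± 0.50 (FDR 0.418), and Itga3 was lower in all 5 dediHeps, at -1.61 ± 0.34 (FDR 0.0165).

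Of 18 junction and polarity genes 3 were called higher and 1 lower (median 0.79), against 5.93% of all genes in either direction, and the 3 became 0 without Hep_14d 1 or 2 and 1 without Hep_14d 3. Of 23 genes of the mesenchymal state 0 were called higher and 2 lower, with 7 past the FDR downward and 20 of 23 below 0 (median -0.90). The 2 became 1 without Hep_14d 1 or 2 or dediHep 2 or 5, and 1 gene was higher without dediHep 5. Cdh1, E-cadherin, was at 1278, 1419, 782, 836 and 757 CPM in dediHeps and 549, 579.9 and 595 CPM in Hep_14d. All 5 dediHeps exceeded all 3 libraries of the 2-week culture, with a log2 fold change of 0.82 ± 0.28 (FDR 0.0867). Ocln, the tight junction protein occludin, was at 102, 109, 387, 139.6 and 82.3 CPM against 27.5, 42.6 and 26.3 CPM (2.34 ± 0.55, FDR 0.0256), while Marveld2, of tricellular junctions, rose by 2.75 ± 0.72 (FDR 0.0365) and Crb3, a polarity protein, by 2.38 ± 0.63 (FDR 0.0387). These 3 calls were lost without Hep_14d 1 or 2 (FDR 0.104 to 0.195), and the fold of Ocln went under 4 without dediHep 3 (1.74, FDR 0.0144). Cldn3, a claudin of liver and gut, was at 1.23, 0.531, 54.6, 42.1 and 0 CPM in dediHeps and 66.4, 59.6 and 69.7 CPM in Hep_14d, kept in dediHeps 3 and 4 and nearly gone in 1, 2 and 5 (-1.69 ± 1.13, FDR 0.343).

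Vim, the intermediate filament of mesenchymal cells, was at 621, 247, 248, 134 and 192 CPM in dediHeps and 576, 546 and 955 CPM in Hep_14d. dediHeps 2 to 5 lay below the 2-week culture and dediHep 1 within its range, with a log2 fold change of -1.26 ± 0.44 (FDR 0.0897), or -1.75 without dediHep 1 (FDR 0.00371). Vim remained far above fresh hepatocytes, at 269 ± 172 CPM in dediHeps and 1.18 ± 2.05 CPM fresh on the scale over 49 libraries. Zeb1, a repressor of epithelial genes, was lower in all 5 dediHeps at -1.51 ± 0.41 (FDR 0.0414), and so was Cd44, the hyaluronan receptor, at -1.49 ± 0.35 (FDR 0.0255). Krt18, a keratin of hepatocytes, was at -0.76 ± 0.26 (FDR 0.0898) and Krt7, a keratin of ducts, at 1.35 ± 0.45 (FDR 0.0813). Of 18 S100 proteins and annexins 3 were called higher and 0 lower, against 3.84% and 2.09% of all genes. The 3 became 1 without Hep_14d 1 and 0 without Hep_14d 2, Hep_14d 3 or dediHep 3. Without Hep_14d 1, dediHep 2 or dediHep 4, 1 was lower. Anxa2 and Anxa5 were lower in all dediHeps at -1.39 ± 0.31 and -1.45 ± 0.31 (FDR 0.0206 and 0.0187), Anxa8 was called higher at 2.73 ± 0.67 (FDR 0.0294, and 0.164 and 0.106 without Hep_14d 2 or 3, or 1.96 without dediHep 3), and S100a7a was at 1.33 ± 0.81 (FDR 0.3).

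Of 37 genes of DNA replication 0 were called and of 36 mitotic genes 1, with medians of 0.13 and 0.66. Mki67, the antigen of cycling cells, was at 89.7, 183, 641, 229 and 313 CPM in dediHeps and 110.1, 196 and 212 CPM in Hep_14d. Its range in dediHeps enclosed that of the 2-week culture, and dediHep 3 was the highest (0.76 ± 0.53, FDR 0.364). Mad2l1, of the spindle checkpoint, was the 1 gene called (2.44 ± 0.72, FDR 0.0552), lost without dediHep 3 at 1.55 (FDR 0.0497) and without any 1 Hep_14d library (FDR 0.139 to 0.236). Of 22 CDK inhibitors and p53 targets 0 were called, and 1 was higher without Hep_14d 1 or dediHep 3. Leaving out Hep_14d 1 also gave 1 higher gene of DNA replication. Aen and Zmat3, p53 targets, were lower in all dediHeps at -1.43 ± 0.31 and -1.38 ± 0.34 (FDR 0.0187 and 0.0299), and Cdkn1b, the inhibitor p27, was higher at 1.21 ± 0.31 (FDR 0.0327).

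Of 24 genes around the EGF receptor 3 were called higher and 3 lower, against 3.84% and 2.09% of all genes. The 3 higher became 0 without any 1 Hep_14d library and 1 without dediHep 3, and the 3 lower became 1 without Hep_14d 2. Egfr itself was at 112, 14.3, 12.7, 19 and 15.9 CPM in dediHeps, and at 212 and 225 CPM in Hep_14d 1 and 2 and a little lower in Hep_14d 3. It was lower in every dediHep, least so in dediHep 1, with a log2 fold change of -2.62 ± 0.66 (FDR 0.0328, and 0.136 without Hep_14d 2). Etv4 and Etv5, ETS factors induced by ERK, were at -2.40 ± 0.52 and -2.39 ± 0.73 (FDR 0.0194 and 0.0625), and the call of Etv5 was lost without dediHep 2 or 3 or any 1 Hep_14d library (FDR 0.108 to 0.251). Spry1, a feedback inhibitor of the same pathway, was at 117, 19.6, 14.1, 12 and 16.9 CPM in dediHeps and 3.77, 1.88 and 5.26 CPM in Hep_14d (3.33 ± 0.94, FDR 0.0473), highest in dediHep 1, and lost without any 1 Hep_14d library (FDR 0.118 to 0.219). Of 20 Yap targets 0 were called higher and 1 lower. Ccn1, the matricellular protein CYR61, was at 1523, 75.3, 78.8, 29.7 and 47.6 CPM in dediHeps and 51.7, 37 and 73.7 CPM in Hep_14d, and Ccn2 at 693, 41.4, 10.8, 12.4 and 34.2 CPM and 109, 92.8 and 75 CPM. For both, dediHep 1 lay far above all others, and without it the log2 fold change went from 2.71 to 0.12 for Ccn1 (FDR 0.188 and 0.864) and from 0.76 to -1.92 for Ccn2 (FDR 0.708 and 0.0165).

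Oncofetal and imprinted genes were called in both directions. Of 20 on the list 13 were tested, with 4 called higher and 2 lower, against 3.84% and 2.09% of all genes. The 4 became 2 without Hep_14d 1, Hep_14d 3, dediHep 2 or dediHep 3 and 1 without Hep_14d 2. H19, an imprinted RNA of fetal liver, was at 55.9, 829.9, 1085, 1447 and 620.1 CPM in dediHeps and 16.2, 10.7 and 22.4 CPM in Hep_14d. It was above 600 CPM in dediHeps 2 to 5 and lowest in dediHep 1 (5.65 ± 0.92, FDR 0.00511). Igf2bp1, a fetal RNA-binding protein, rose by 2.18 ± 0.51 (FDR 0.0255), and was not called without dediHep 5 (1.95, FDR 0.0386) or Hep_14d 2 (FDR 0.151). Meg3, an imprinted RNA of another locus, went from 29.4, 53.3 and 46.1 CPM in Hep_14d to 0, 1.59, 0.327, 0.413 and 3.47 CPM in dediHeps (-5.17 ± 0.69, FDR 0.00175), and Hmga1, a chromatin protein of embryonic and growing cells, fell by 2.47 ± 0.51 (FDR 0.0162).

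In carbon metabolism single enzymes were called. Of 23 glycolysis genes 2 were called higher and 1 lower (median -0.02), against 3.84% and 2.09% of all genes. The 2 became 0 without Hep_14d 1 or 2 and 1 without Hep_14d 3. The 1 lower became 0 without Hep_14d 2 and 2 without dediHep 3. Ldhb, the heart form of lactate dehydrogenase, fell by 4.24 ± 0.91 (FDR 0.0181, and 0.136 without Hep_14d 2). Shmt1, of folate metabolism, was at 2.04 ± 0.51 (FDR 0.0325), just past 4-fold and under it without dediHep 3 (1.62, FDR 0.0446), and above an FDR of 0.1 without any 1 Hep_14d library (0.104 to 0.173). Gsta1, a glutathione transferase with close paralogs, rose by 2.52 ± 0.61 (FDR 0.028, and 0.107 and 0.158 without Hep_14d 1 or 2), and Txnrd1, thioredoxin reductase, was lower in all 5 dediHeps at -0.93 ± 0.24 (FDR 0.034). Of 13 mitochondrially encoded genes mt-Nd3, a subunit of complex I, was the 1 called (2.07 ± 0.29, FDR 0.00219), and its log2 fold change was under 2 without Hep_14d 1, Hep_14d 2 or dediHep 4 (1.95, 1.90 and 1.99, with FDRs of 0.0208, 0.0272 and 0.00388).

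Differences also followed chromosomes. For genes with a mean of at least 10 CPM, the log2 ratio of each dediHep library to the Hep_14d mean was taken. Each Hep_14d library was set against the mean of the other 2. Medians per chromosome were then centred on the library's median over all these genes. In the 3 Hep_14d libraries these medians lay between -0.11 and 0.10. On chromosome 19 they were 0.37, 0.51, 0.61, 0.44 and 0.57 in dediHeps 1 to 5, above every Hep_14d library. On chromosome 4 they were -0.12, -0.59, -0.25, -0.25 and -0.41. Chromosome 7 was also below 0 in all 5, at -0.39, -0.27, -0.15, -0.03 and -0.20, with dediHep 4 inside the Hep_14d range. On chromosome 15 they were -0.13, 0.28, 0.45, 0.43 and -0.01, so that dediHeps 2, 3 and 4 were high there and 1 and 5 were not. Other chromosomes shifted in some libraries only, such as chromosome 14 at -0.50 in dediHep 4. Of 393 genes tested on chromosome 19, 35 were called higher (8.91%) and 3 lower (0.763%), and of 437 on chromosome 15, 31 were higher (7.09%) and 4 lower (0.915%), against 3.84% and 2.09% of all genes. Scd1, Scd2, Slc16a12, Ffar4, Ms4a4b and Cyp2c68 lie on chromosome 19. Without its 2 genes on chromosome 19 the cholesterol and fatty acid list kept 8 of 27 called and 16 past the FDR upward (median 1.45). The number of chromosome copies was not measured, and its part in these medians was not tested.

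**Figure D5:**
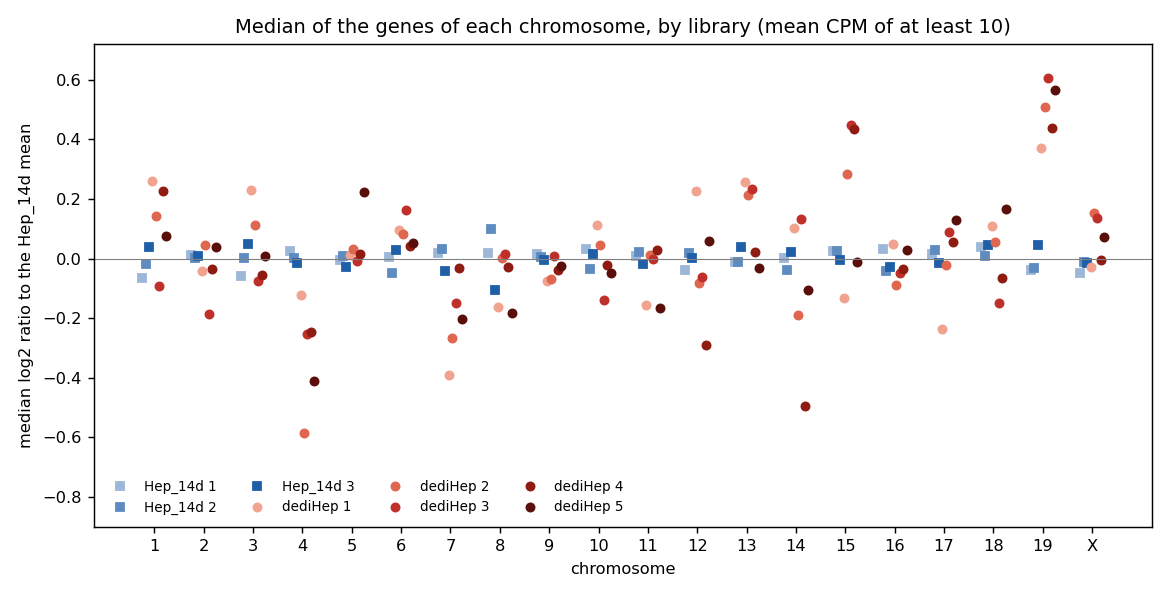
Median log2 ratio to the Hep_14d mean over the genes of each chromosome (mean of at least 10 CPM), with the 3 Hep_14d libraries as blue squares and the 5 dediHep libraries as red circles. On chromosome 19 all 5 dediHeps lie between 0.37 and 0.61, above the squares, and chromosomes 4 and 7 lie below 0 in all 5.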

How the data were processed

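The deposited table holds raw UMI counts per gene for 49 libraries, which the authors made by CEL-Seq2, a method that tags the 3′ end of each RNA with a barcode and a 6-base molecular identifier (UMI). Identical identifiers were counted once, so a gene cannot exceed 4096 counts in a library. The submitters' processing notes name bcl2fastq 2.20, Bowtie2 2.3.1, HTSeq 0.6.0 and the GRCm38 build. Groups and replicate numbers came from the library labels. Symbols and coordinates were matched by Ensembl identifier to the GENCODE M21 annotation.

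Counts of the 5 dediHep and 3 Hep_14d libraries were tested with edgeR 4.0.16 (R 4.3.3) by the quasi-likelihood F-test, with TMM scaling and the filterByExpr filter (a minimum count of 10 and total of 15), and p-values were adjusted over all genes tested by the Benjamini-Hochberg method. A gene near 0 in 1 group passed the filter only when the other group expressed it. A gene was called at an FDR below 0.1 with a change of over 2 log2 units. Standard errors are the log2 fold change divided by the square root of F. Hep_7d and FH were compared in the same way in a fit of their own. The genes named are those the study names for this transition, for each direction the 10 calls lowest in p, the 10 of largest fold among those with at least 20 CPM in the higher group and no overlap, and up to 4 members with the smallest p in each gene list. Defining markers of other cells were added. Acaca, Adh1, Ascl2, Cyp51, Fasn, Hmgcs1, Idi1, Itgb4, Lamb3, Lgr5, Muc13, Srebf1, Cdx1, Elovl6, Pcolce and the repeat loci fall outside this rule and were chosen after their values were seen. Some genes that the rule selects are not reported here. Members and lists were chosen with earlier results of these data known. Intervals and floors cover counting error only. The scripts were tested on simulated data. Alternatives were RLE scaling, DESeq2 1.42.0, other filters and thresholds, all 49 libraries in a single fit, the replicate number as a block, thinned and UMI-corrected counts, and leaving out libraries.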

Additional observations from a re-analysis of the deposited data

Results flagged for a closer look

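Among the 5 dediHep libraries, 28 of the 135 genes examined one by one and 7 of 36 list sums had a single library whose gap to the next exceeded Dixon's critical value of 0.71, where chance gives about 1 in 20 groups. Groups of 3 libraries were not tested this way. Values are in CPM.

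In dediHep 1 the library apart was high for Vim (621), Ccn1 (1523), Ccn2 (693), Fos (601), Ccl20 (868), Egfr (112), Spry1 (117), H2-D1 (409.9) and Xist (454), and low for Anxa2 (514, the others at 859.6 to 908), while F10, coagulation factor X, was at 0 there. The summed Yap targets (6464) and interferon-stimulated genes (2022) were also highest in it.

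In dediHep 3 it was high for Ocln (387), Krt19 (542), Vsig1 (479), Ffar4 (91.9), Mad2l1 (103) and Anxa8 (178), for the Y-linked Uty (40.9), Ddx3y (196), Eif2s3y (38.6) and Kdm5d (6.86), and for the sums over DNA replication (3875), mitosis (5512) and intestinal genes (2952).

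In dediHep 4, Kif1a was at 0, Saa3 (426) and Etv5 (32.6) were high and Cdkn1b (116) was low. In dediHep 5, Cyp1a2 (3.97), Cyp3a11 (41.6), Bmp7 (126) and the stellate cell sum (133) were high, as was in dediHep 2 the erythroid sum (1.06).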

How the results depend on the processing

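With RLE scaling, DESeq2, thinned counts or UMI-corrected counts the number of genes called between dediHeps and Hep_14d was 653, 735, 504 and 670, within 1.5 times the 662 reported. It was 1550 with no low-count filter (793 higher, 757 lower, 51.2% higher against 64.8%), 1549 with a minimum of 0.5 CPM in 1 library (801 and 748), 1303 with all 49 libraries in a single fit (720 and 583), 1034 when calls needed an FDR of 0.05 and log2 of 1 (479 lower) and 1984 at any fold (1084 and 900). Without both Hep_14d libraries high in macrophage markers, an alternative chosen after seeing the data, it was 40 (3 and 37). Leaving out 1 library gave 285 to 766 genes called, 130 to 498 higher and 155 to 268 lower, the lowest without Hep_14d 2 and the highest without dediHep 4. In Hep_7d against FH, 3907 genes were called with no filter. With no filter the counts of genes higher in dediHeps that were lower or higher at 1 week were 225 and 74, and of genes lower in dediHeps that were higher or lower then 157 and 126. At the FDR of 0.05 and log2 of 1, the genes higher both times were 31 and those lower after being higher 172. Leaving out 1 library, in part added after the data were seen, gave 52 to 170, 6 to 41, 65 to 99 and 21 to 44 for the 4 counts in that order.

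Of single genes, none of which was called, the log2 fold change turned to 0.21 for Lamb1, -0.23 for Hnf4a, -0.17 for Id2 and 1.81 for Csf1r without the 2 macrophage-high libraries, to -0.17 without Hep_14d 2 and -0.13 without dediHep 3 for Hnf4a, and to -1.92 without dediHep 1 for Ccn2. Over all single leave-outs Hnf4a ran from -0.17 to 0.26 and Ccn2 from -1.92 to 1.08. The cause was not tested. Over all named genes and alternatives, 1968 values kept direction and side of the threshold, 156 lost the call and 34 gained it.

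The replicate numbers did not pair the libraries: correlations of same-numbered libraries were -0.03, 0.05 and 0.09, within the range of -0.16 to 0.10 for all pairs. With the replicate number as a block, 913 genes were called, 350 of them lower, and Ccn2 turned to -0.50.

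Depth limits genes under a floor of 3 counts, 1.05 to 3.48 CPM.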

Other observations

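Mesothelial genes, of which 2 of 8 could be tested, summed to 475, 442 and 341 CPM in Hep_14d 1 to 3 and to 1544, 783, 648, 460 and 1213 CPM in dediHeps 1 to 5. The lists for proteases and their inhibitors, serine and amino acid supply, and NRF2 and metallothionein had 17, 24 and 19 genes tested. Calls were 1 higher and 3 lower, 1 higher and 0 lower, and 1 higher and 0 lower. Over all genes the shares were 3.84% higher and 2.09% lower. Single leave-outs changed these list counts to between 0 and 2 higher. Of 6 epithelial keratins 0 were called.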
